A study of Mus musculus with 6 samples.

Results

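The 2 epiblast stem cell lines of this study, EpiSC-5 and EpiSC-7, were compared with each other by their RNA levels on Agilent arrays. A gene was counted as differing between the lines if the single EpiSC-5 array read at least 2-fold above, or at least 2-fold below, both EpiSC-7 arrays. Of 16010 autosomal genes that could be read, 505 met this rule on the higher side in EpiSC-5 (3.15%) and 87 on the lower side (0.543%). A gene could be read if its spot was well above background, the scanner software's own call, on the EpiSC-5 array or on both EpiSC-7 arrays. Levels are given on a scaled log2 scale, on which 0 is the 75th percentile of an array's signals and a step of 1 is a 2-fold change. These differences chose the genes, so they are a description with no test, and with 1 EpiSC-5 array there is no replicate check.

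The series holds 6 arrays of mouse cells, each from RNA extracted with TRIzol: 3 arrays of embryonic stem cells (mES, 3 lines) and 3 of epiblast stem cells. EpiSC-5 was measured once, with no passage given, and EpiSC-7 at passage 20 (replicate 1) and passage 25 (replicate 2), which are samples of 1 line. All cells grew on irradiated mouse embryonic fibroblasts in DMEM with KSR, BME, NEAA and L-glutamine, to which FGF2 was added for both EpiSC lines and LIF for mES. The genotype, strain and embryo of origin of each line are not given in the sources used here. The fibroblasts of the feeder layer are a possible part of every RNA sample, and in such bulk RNA fewer cells of a type and less RNA per cell cannot be told apart.

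Epiblast stem cells are derived from the epiblast of the implanted embryo. They keep the pluripotency factors Pou5f1, Sox2 and Nanog, depend on Activin or Nodal and FGF signals, and sit close to the cells that enter the primitive streak. In the embryo that step leads, under Wnt and Nodal signals, either to mesoderm or to definitive endoderm, whose first regulators include Sox17, Foxa2, Gata4 and Gata6.

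The genes that mark epiblast stem cells were read on both lines. Pou5f1, Sox2, Nanog, the epiblast growth factor gene Fgf5, the head and epiblast factor Otx2, and the streak factors T and Eomes were well above background on all 3 EpiSC arrays. Zfp42, an ES cell gene also called Rex1, lay at -5.03 on EpiSC-5 and at -4.62 and -3.62 on EpiSC-7, against 5.59 to 6.42 on the mES arrays. It too was called well above background on all 3 EpiSC arrays, though far dimmer than on mES. Dppa3, another ES cell and germ line gene, was well above background on none of the 3 EpiSC arrays. Markers of other cell types were called well above background too. Between 73.0% and 76.0% of the spots of each EpiSC array met this call, so it does not show that such cells were present. All 8 fibroblast feeder markers, 7 of 9 visceral endoderm markers and the blood globin gene Hbb-bh1 were well above background on all 3 EpiSC arrays. Afp was so on 2 of them, the blood gene Ptprc on 1 and the visceral endoderm gene Ttr on none. The neural markers Sox1, Pax6 and Nes and the mesoderm and muscle markers Mesp1, Tbx6, Nkx2-5, Actc1 and Tnnt2 were so on all 3. Hbb-bh1 was dim, at -5.16 on EpiSC-5 and -4.90 and -3.31 on EpiSC-7.

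The median processed signal was 126 on the EpiSC-5 array and 74.6 to 92.3 on the other 5, before scaling. Between 66.8% and 76.0% of the spots of each array were well above background. EpiSC-5 was alone on its slide and scan, and the EpiSC-7 arrays shared another, so that line and slide cannot be told apart. Scaled levels of the same gene on the EpiSC-7 arrays differed by a median of 0.33, against 0.28 and 0.24 between EpiSC-5 and EpiSC-7 replicates 1 and 2, over the 15064 genes well above background on all 3 EpiSC arrays. The median difference between the lines over all 16010 genes was -0.03.

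Most genes that separated the lines were higher in EpiSC-5, 85.3% of the 505 and 87 together, or 74.1% with median scaling, 74.0% with quantile normalization and 62.6% without EpiSC-7 replicate 2. After normexp background correction 119 were higher and 27 lower. Among the 15064 genes well above background on all 3 EpiSC arrays, 276 were at least 2-fold above both EpiSC-7 arrays (1.83%) and 54 at least 2-fold below (0.358%). Of these, 64 and 8 were at least 3-fold apart, 29 and 2 at least 4-fold, and 3 and 1 at least 8-fold. The higher genes lay mostly among dim ones. When all genes were divided by mean signal into 4 equal bins, the dimmest bin held 337 of all 505 higher and 44 of all 87 lower genes, and the brightest bin 16 and 10. The median difference was 0.19 in the dimmest bin and -0.13 in the brightest. A further 161 higher and 31 lower genes were not above background by any probe on the side where they were low, 58 higher genes were above it on 2 of the 3 arrays, and for 10 higher and 2 lower genes another probe was above it on the low side. At the edge of the rule, Gfra1 (1.002 above the nearer EpiSC-7 array) was the last gene inside on the higher side and Trhr2 (0.998) the first outside. On the lower side these were 4930526I15Rik (-1.002) and Tmem229a (-0.99).

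**Figure D1:**
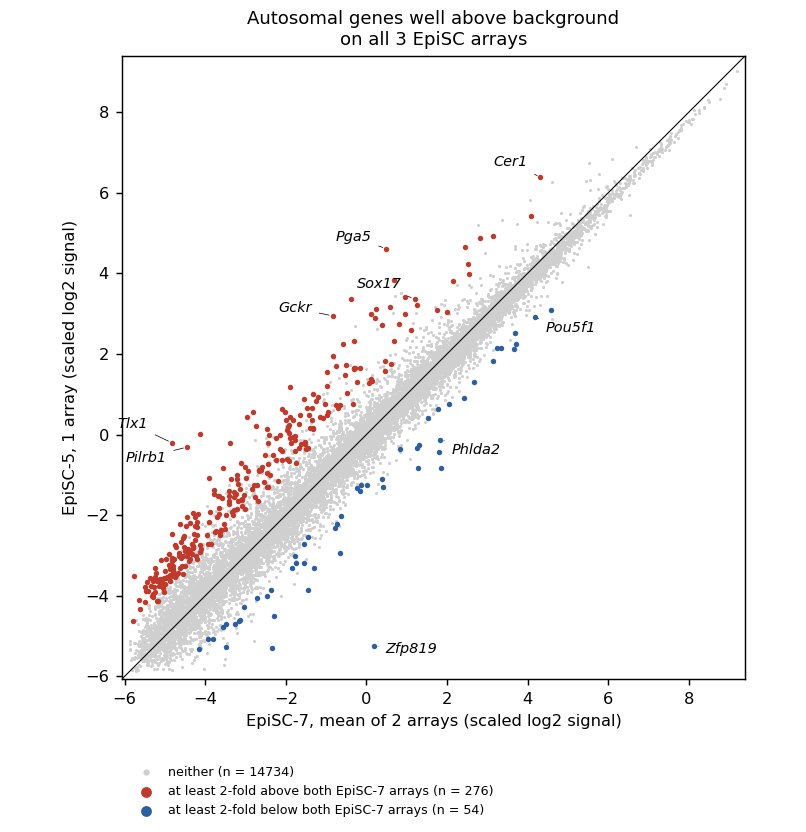
Each point is 1 of the 15064 autosomal genes well above background on all 3 EpiSC arrays, with its mean scaled log2 signal on the 2 EpiSC-7 arrays on the horizontal axis, its signal on the EpiSC-5 array on the vertical axis, and equal signal on the line. The 276 genes at least 2-fold above both EpiSC-7 arrays lie mostly at low signal, while Cer1 stands among the brightest genes of the cells, and Zfp819 lies furthest below the line.

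The gene furthest above EpiSC-7 was Tlx1, a homeobox factor needed for the spleen. It read -0.20 on EpiSC-5 and -5.17 and -4.49 on EpiSC-7, 31.2- and 19.5-fold apart, and -4.98 to -4.31 on the mES arrays. EpiSC-7 thus lay at the level of mES, and EpiSC-5 alone stood out. Myocd, the cofactor that drives smooth and cardiac muscle genes, read 0.02 against -4.60 and -3.63 and was not above background on any mES array. Rax, a homeobox factor of the eye field, read -0.21 against -3.77 and -2.98 by 1 probe, while its dimmer probe did not meet the rule. Gata3, a zinc finger factor of trophectoderm, surface ectoderm and T cells, read 0.57 against -3.54 and -2.07, 17.3- and 6.23-fold apart. Each of these factors was far below the 75th percentile of signal on EpiSC-7 and close to it on EpiSC-5.

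Other genes of the set were brighter on EpiSC-5. Gckr, the liver regulator of glucokinase, read 2.94 on EpiSC-5 against -2.06 and 0.38 on EpiSC-7. Pga5, a pepsinogen gene, read 4.61 against -1.17 and 2.14, which is 54.9-fold above one EpiSC-7 array and 5.53-fold above the other. Hkdc1, a hexokinase-like gene, read 3.37 against -1.70 and 0.92. For these 3 genes the EpiSC-7 arrays were themselves over 4-fold apart, so the size of the difference depends on which is taken, while both lay above every mES array. Chga, the chromogranin of hormone granules, was more even, at 2.89 against 0.11 and 0.31 (6.84- and 5.95-fold), as was Clic6, a chloride channel family gene, at 3.83 against 0.12 and 1.26. Pilrb1, an activating receptor of immune cells, read -0.31 against -4.46 and -4.44. Its neighbours Pilra and Pilrb2 also met the rule, and how far probes of such related genes share signal was not tested. Srgn (granule proteoglycan), Prg2 (eosinophil granule protein), Amn (endocytic receptor partner of cubilin), Tmem184a and Myorg completed the 15 genes furthest above EpiSC-7, each at least 5.01-fold above both arrays.

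**Figure D2:**
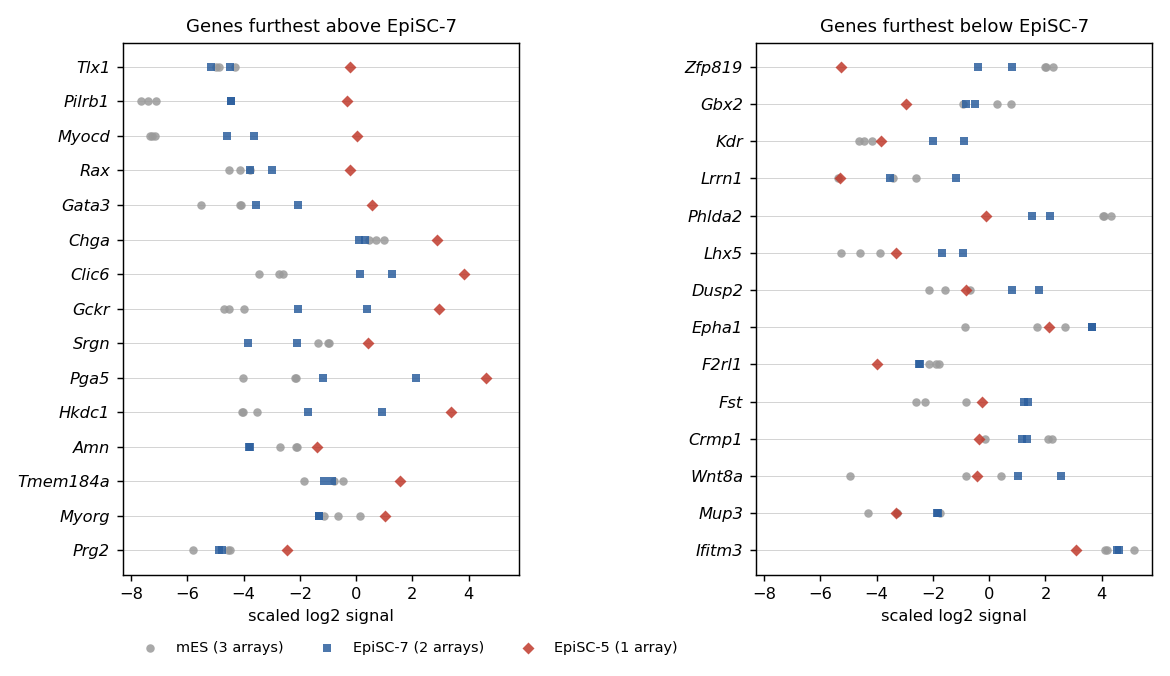
Scaled log2 signal on each of the 6 arrays for the genes named as furthest above (left) and below (right) EpiSC-7, taken by the smaller of the differences from its 2 arrays. EpiSC-5 (diamond) stands outside the EpiSC-7 values (squares) by the rule itself, and the mES values (circles) show on which side the other cell type lay, as for Phlda2, where EpiSC-7 lies between EpiSC-5 and mES.

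Genes of early endoderm stood higher in EpiSC-5. Of 22 readable genes of a definitive endoderm and node list, 9 were higher by the rule (40.9%) and 0 lower. Over all genes these shares were 3.15% and 0.543%. By any margin 13 of the list read above both EpiSC-7 arrays, beside 4522 of all 16010 genes. The median difference of the list was 1.30 (2.08 against EpiSC-7 replicate 1 and 0.55 against replicate 2), beside -0.03 over all genes. Of 33 primitive and visceral endoderm genes 8 were higher (24.2%) and 0 lower, with a median of 0.83 (0.98 and 0.68). The lists share the members Gata4, Gata6 and Sox17. The definitive endoderm count was 9 higher and 3 lower without EpiSC-7 replicate 1 and 14 and 0 without replicate 2, and the visceral list had 5 higher genes after normexp background correction and 15 without replicate 2.

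Both lists hold transcription factors of endoderm. Sox17, which starts endoderm formation, read 3.36 on EpiSC-5 against 0.74 and 1.64 on EpiSC-7, 6.14- and 3.28-fold apart, and -5.27 to -4.48 on mES. Gata6 read 3.41 against 0.34 and 1.59 (8.36- and 3.52-fold), and Gata4 -2.74 against -4.88 and -4.64 (4.39- and 3.72-fold). Another probe met the rule in the same direction for each of these 3 genes. A further, dim probe missed it for Gata6 and for Sox17, and Gata4 missed it after the normexp background correction. Hhex, a homeobox factor of anterior endoderm, read 3.21 against 0.50 and 2.02. Prdm1, a repressor used in endoderm and in germ cells, read -0.22 against -2.26 and -1.46. EpiSC-5 was the highest of the 6 arrays for all 5, of which the place above EpiSC-7 is set by the rule.

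Signals and surface proteins of the anterior endoderm and organizer were higher too. Cer1 codes for a secreted protein that binds and blocks Nodal and BMP ligands. It reached 6.38 on EpiSC-5 against 3.61 and 5.02 on EpiSC-7, 6.84- and 2.56-fold apart, and was not above background on any mES array. Lhx1, a homeobox factor of the organizer, read 4.65 against 1.62 and 3.27, and its divergent neighbour Lhx1os 2.72 against 0.00 and 0.79. Cxcr4, the chemokine receptor by which definitive endoderm is often sorted, read 0.66 against -1.92 and -1.004 (5.98- and 3.16-fold). Cldn6, a tight junction gene of embryonic epithelia, and the membrane protease gene Tmprss2 also met the rule. Gsc, the organizer homeobox gene, read 4.49 against 2.35 and 3.54 and missed the rule against replicate 2 (difference 0.95). It met the rule after quantile or cyclic loess normalization.

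Other endoderm genes did not separate the lines. Foxa2, a regulator of endoderm and node, read 4.97 on EpiSC-5 and lay between the EpiSC-7 arrays at 4.13 and 5.40. Hnf4a, of visceral endoderm and liver, read -3.11 against -2.85 and -3.29. The epithelial keratin genes Krt8 (5.83 against 2.89 and 5.24) and Krt18 (6.26 against 3.47 and 5.75) were above both EpiSC-7 arrays but within 2-fold of replicate 2. Among genes of secreted or endocytic visceral endoderm products, Rbp4, the retinol carrier, read 2.99 against 0.48 and 1.45, Apoa1 -1.47 against -4.87 and -2.71, and Amn -1.37 against -3.78 and -3.81. Apob, a partner of Apoa1 in lipid transport, read -3.13 between -3.66 and -3.03, and Afp -3.44 against -4.36 and a level below background at -6.53. The visceral endoderm markers were thus divided, 3 of 9 meeting the rule (Rbp4, Apoa1 and Amn), while 4 of 5 definitive endoderm markers did (Sox17, Cxcr4, Cer1 and Hhex, without Foxa2).

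**Figure D3:**
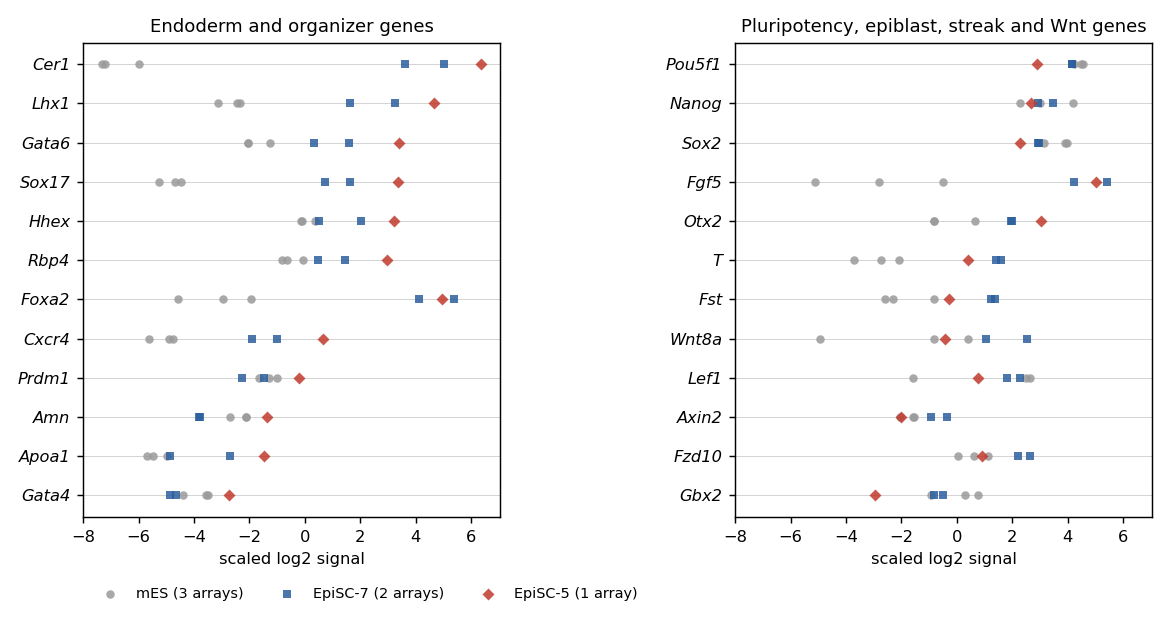
Scaled log2 signal on each of the 6 arrays for 12 endoderm and organizer genes (left) and 12 pluripotency, epiblast, streak and Wnt genes (right), chosen after their values were seen. On the left EpiSC-5 (diamond) stands above both EpiSC-7 values (squares) for every gene but Foxa2, and on the right it stands below them for every gene but Fgf5, which lies between, and Otx2. The Wnt genes shown are the 4 that were lower by the rule, and the 5 that were higher are not shown. Also not shown are Hnf4a, Apob and Eomes, which lay between the EpiSC-7 values, and Grhl2, Esrrb and Spp1, which were higher.

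Markers of the fibroblast feeder moved with the same comparison. All 34 genes of a feeder list were readable and 28 stood above both EpiSC-7 arrays, beside 4522 of all 16010 genes. The median difference was 1.24 (0.72 against replicate 1 and 1.60 against replicate 2). Of the 34 genes, 3 met the rule (8.82%, beside 3.15% of all genes): Fbn1, Col6a1 and Sfrp1. Without EpiSC-7 replicate 1, 21 of them did, and without replicate 2, 5. The log2 of the summed scaled signal of the list was 8.36 on EpiSC-5 and 7.70 and 7.66 on EpiSC-7, and none of the defining markers was at background. Col1a1, the main collagen of fibroblasts, read 5.19 on EpiSC-5, 4.37 and 1.16 on EpiSC-7, and 1.86 to 5.55 on the mES arrays. On mES replicate 3, where Col1a1 was highest at 5.55, Sox17 read -4.67, Cxcr4 -5.63 and Cer1 was not above background. Gata6 read -1.24 there, against -2.04 on each of the other mES arrays, and Gsc -1.74, against -3.80 and -3.44. Inhba (-0.14) and Grem1 (-2.38) were also highest of the mES arrays there, while Lhx1 (-3.13) was lowest. These genes are examples, with no count over the higher genes. The 3 feeder members that met the rule were also highest of the mES arrays there, Fbn1 at 0.42, Col6a1 at 0.35 and Sfrp1 at 3.01. The part of the feeder in the differences between the lines was not tested. Other genes of the higher set include Grem1, a BMP antagonist (-1.01 against -2.32 and -4.11), Inhba, an Activin subunit (0.72 against -0.34 and -0.98), Foxc1 (-1.30 against -2.47 and -2.49) and Foxc2, regulators of mesenchyme, and the naive list's member Spp1 (4.88 against 3.83 and 1.81).

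The higher and lower genes also varied more between the mES lines, which the rule did not use. Over the 13929 genes well above background on all 6 arrays, the median range over the 3 mES arrays was 0.45, and 17.7% had a range of at least 2-fold. Among the 225 higher genes measured on all 6 the median range was 1.07 and 53.8% reached 2-fold, and among the 44 lower genes these were 0.98 and 50%. These genes were not matched to the 13929 for brightness, and the 276 higher genes lay mostly at low signal. Feeder genes were among them, such as Col6a1, which ran from -2.92 to 0.35 on mES. Why the ranges were larger was not tested. Of the 276 higher genes, 116 were also at least 2-fold above all 3 mES arrays on EpiSC-5, 33 read at or below the lowest mES array, and for 109 the EpiSC-7 and mES values overlapped. Of the 54 lower genes, 14 were also at least 2-fold below all 3 mES arrays, 13 at or above the highest, and for 19 EpiSC-7 and mES overlapped.

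Gckr is shown with the sequence before its start, since Gata4, Gata6 and Gata3 stood higher on the same array and the GATA factors bind the letters searched. The 250 bases before the RefSeq start (chr5:31297313-31297562, plus strand, GRCm38.p6) hold AGATAA once, in capitals, 39 bases before the start.
Gckr promoter: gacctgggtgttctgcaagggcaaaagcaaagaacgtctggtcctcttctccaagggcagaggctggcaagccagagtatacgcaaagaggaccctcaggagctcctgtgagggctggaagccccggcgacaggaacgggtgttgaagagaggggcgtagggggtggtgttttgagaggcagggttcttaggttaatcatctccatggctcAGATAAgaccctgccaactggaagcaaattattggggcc
Over both strands, AGATAA stood in 28 of 272 such windows of the 276 higher genes (10.3%, windows of 204 genes matched), in 2 of 43 windows of the lower genes (4.65%, 38 genes matched) and in 9.99% of all 32851 windows. The share in the higher genes was thus close to that of all promoters, and a match is no more than these letters.

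The gene furthest below EpiSC-7 was Zfp819, a KRAB-type zinc finger gene. It read -5.25 on EpiSC-5 against -0.40 and 0.79 on EpiSC-7, 28.9- and 65.9-fold apart, and 1.98 to 2.28 on the mES arrays. EpiSC-5 was the single array of the 6 on which it was low. Phlda2, an imprinted gene that restrains placental growth, read -0.13 against 2.16 and 1.51 and 4.03 to 4.31 on mES. Both EpiSC-7 arrays of Phlda2 thus lay below every mES array, and EpiSC-5 lay below EpiSC-7 by the rule itself. The second probe of Phlda2 met the rule too. Among 52 readable imprinted genes, Phlda2 was the single lower member, and Airn (listed as Air), the non-coding RNA that silences Igf2r in cis, and Ddc, an amine synthesis enzyme gene, were the higher ones. The other probe of Ddc read -3.13 on EpiSC-5 against -3.43 and -3.14, and Ddc missed the rule with median scaling and with the median over its probes. The list's median was -0.05, and 3.85% of it was higher and 1.92% lower, beside 3.15% and 0.543% over all genes.

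Other genes furthest below EpiSC-7 include developmental regulators and receptors. Gbx2, a homeobox factor of naive cells and of the hindbrain border, read -2.94 against -0.81 and -0.49. Lhx5, a forebrain homeobox gene, read -3.30 against -0.93 and -1.67. Kdr, the VEGF receptor of early mesoderm and endothelium, read -3.86 against -0.90 and -1.98, a level near the -4.61 to -4.17 of mES. EpiSC-5 was the lowest of the 6 arrays for Gbx2, and for Lhx5 and Kdr it was closer to mES than to EpiSC-7. Epha1 (2.11 against 3.65 and 3.64) and Ifitm3 (3.08 against 4.61 and 4.53), an interferon-induced membrane protein gene, were bright on both lines and nearly equal on the EpiSC-7 arrays. Lrrn1, Dusp2 (an ERK phosphatase), F2rl1, Fst, Crmp1, Wnt8a and Mup3 were each at least 2.76-fold below both EpiSC-7 arrays.

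Among pluripotency genes Pou5f1 met the rule, and against the mean of the EpiSC-7 arrays the list's median was the lowest of the 29 lists. Pou5f1, also called Oct4, read 2.90 on EpiSC-5 against 4.18 and 4.17 on EpiSC-7, 2.42- and 2.41-fold lower, and 4.25 to 4.57 on mES. The EpiSC-7 arrays were nearly equal on this gene, and EpiSC-5 was the lowest of the 6. Sox2 read 2.27 against 2.94 and 2.97, and Nanog 2.68 against 3.49 and 2.94, both under 2-fold. Of 12 readable core pluripotency genes Pou5f1 alone met the rule (8.33% lower, beside 0.543% of all genes). By any margin 8 lay below both EpiSC-7 arrays and 2 above, beside 5256 and 4522 of all 16010 genes. The median difference was -0.49 against the EpiSC-7 mean, -0.34 against replicate 1 and -0.35 against replicate 2. Against each single array another list was lowest: hypoxia and glycolysis (-0.61) against replicate 1, interferon and innate (-0.998) against replicate 2. The naive ES list had 2 higher and 2 lower genes of 15 (13.3% each way, beside 3.15% and 0.543% over all genes): Esrrb (-2.36 against -3.62 and -3.58) and Spp1 higher, Gbx2 and Fbxo15 (-2.32 against -0.64 and -0.94) lower. Esrrb lost its place in 5 of the other settings, among them median scaling and both normalizations between arrays, and read 2.53 and 3.17 on the mES arrays where it was measured. Klf4 read 1.15 against 1.19 and 1.51.

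Of the epiblast and streak genes, several stood lower in EpiSC-5. T, the brachyury factor of the primitive streak, read 0.40 against 1.43 and 1.60, 2.04- and 2.28-fold lower. This difference was near the edge of the rule, and T missed it with the percentile taken over detected probes, after cyclic loess and after the normexp background correction. Wnt8a, a streak Wnt ligand, read -0.43 against 2.55 and 1.04. Fst, the follistatin that binds Activin, read -0.26 against 1.38 and 1.25. Fgf5 and Eomes did not separate the lines, Fgf5 at 5.02 between 4.25 and 5.44 and Eomes at 1.30 between 0.14 and 2.12. Otx2 (3.04 against 1.97 and 2.01) and Grhl2, an epithelial factor (-0.89 against -2.34 and -2.998), were higher, Otx2 by 2.10- and 2.05-fold and under 2-fold after median scaling. The epiblast list thus had 2 higher (Otx2, Grhl2) and 2 lower genes (Fst, Lef1) of 19 (10.5% each way), with a median of -0.11. The streak list had 2 higher (Lhx1, Cer1) and 2 lower (T, Wnt8a) of 24 (8.33% each way), with a median of -0.12. Over all genes 3.15% were higher and 0.543% lower.

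Wnt pathway genes lay on both sides. Among 36 readable genes 5 were higher (13.9%) and 4 lower (11.1%), beside 3.15% and 0.543% over all genes, and the median was -0.06. The secreted antagonists Sfrp1 (4.92 against 2.59 and 3.68) and Sfrp5 (0.62 against -2.69 and -1.49) were higher, as were the receptor Fzd5, the potentiator Rspo2 and the nuclear factor Tcf7l2 (2.60 against 0.62 and 1.58). Lower were the ligand Wnt8a, the receptor Fzd10 (0.90 against 2.63 and 2.21), the nuclear factor Lef1 (0.76 against 2.29 and 1.80) and Axin2 (-2.02 against -0.36 and -0.92), a feedback inhibitor and common target of the pathway. Tcf7l2 was called by 4 probes, 3 besides the brightest, and Lef1 by both of its probes, but Tcf7l2 was lost under median scaling and Lef1 under both normalizations between arrays. Rspo2, dim at -3.24 on EpiSC-5, was lost under both of these normalizations and after normexp, and Axin2 after normexp. Fzd5 was read by a probe listed as AI427138, an older symbol of that gene (1.72 against -1.15 and 0.11), and the probe with a Fzd5 accession missed the rule (-0.42 against -2.41 and -0.94). The dimmer probe of Fzd10 missed it as well. Other targets and ligands did not meet the rule, Sp5 at 1.17 against 1.22 and 3.23 and Wnt3 at -0.71 against 0.95 and 0.15.

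The sequence before the start of T is shown because T is a known target of Lef1 and its relatives. Of the Wnt list 4 genes stood lower, Wnt8a, Lef1 and Axin2 among them, and 5 stood higher, Tcf7l2 among them. Whether any of them bears on T was not tested. The 250 bases before the T start (chr17:8434173-8434422, plus strand, GRCm38.p6) hold 1 match, in capitals, to CTTTGAT or CTTTGAA. It is the reverse complement TTCAAAG, 235 bases before the start.
T promoter: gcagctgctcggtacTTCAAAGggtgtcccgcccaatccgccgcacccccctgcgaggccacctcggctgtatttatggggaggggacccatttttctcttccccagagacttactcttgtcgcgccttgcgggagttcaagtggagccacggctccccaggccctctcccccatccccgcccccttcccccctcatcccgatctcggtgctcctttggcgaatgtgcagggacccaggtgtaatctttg
Over both strands, these letters stood in 14 of 272 windows of higher genes (5.15%), in 2 of 43 windows of lower genes (4.65%) and in 7.48% of all windows. The shares in the higher and the lower genes were thus below that of all windows, and a match is no more than these letters.

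Genes of other lineages met the rule in both directions, beside 3.15% higher and 0.543% lower over all genes. Of 26 readable neural genes 4 were higher (15.4%: Rax, Irx3, Otx1 and Otx2) and 2 lower (Gbx2, Lhx5), with a median of -0.29. The markers Sox1 and Pax6 were dim on both lines, Sox1 at -2.95 against -2.91 and -3.27 and Pax6 at -4.11 against -3.69 and -4.35. Of 28 mesoderm and muscle genes 5 were higher (17.9%: Gata4, Isl1, Tbx20, Foxc1 and Foxc2) and 2 lower (Kdr, Wt1), with a median of 0.13. Isl1, a factor of cardiac progenitors and of neurons, read -2.20 against -4.38 and -4.36. The mesoderm marker Mesp1 read -4.54 between -3.91 and -4.999. Of 14 trophectoderm genes Gata3 alone was higher and none lower (median 0.45), and Cdx2, the defining trophectoderm factor, read -4.35 against -4.01 and -4.08. Of 21 epithelial and mesenchymal genes 4 were higher (19.05%), the splicing factor Esrp1 and the junction genes Cldn6, Cldn7 and Ocln, and none lower (median 0.63). Of 25 retinoic acid and Hox genes the receptor Rarb (0.55 against -2.37 and -1.66) and Hoxc6 were higher, and Hoxb8 was lower. Hoxb8 was not above background on EpiSC-5, with a bound of 1.40-fold. It missed the rule after the normexp background correction and with dim signals raised to 1 floor. Of 17 haemato-endothelial genes Spi1 and Hba-x were higher and Kdr lower. Hba-x was not above background on EpiSC-7, with a bound of 1.496-fold, and lost its place in 5 of the other settings. Of 11 surface ectoderm genes Gata3 alone was higher, and of 8 germ cell genes Prdm1 alone.

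In signalling and housekeeping lists, 0 to 2 genes per direction met the rule, where 3.15% of all genes were higher and 0.543% lower. Of 24 Nodal and Activin genes Inhba and Cer1 were higher and Fst lower, of 25 FGF and ERK genes Fgf10 was higher and Fgf3 lower, and of 23 BMP genes Grem1 was higher. Cell cycle (28 genes) gave Cdkn2a higher and Ccnd2 (2.14 against 3.38 and 3.30) lower, and hypoxia and glycolysis (27 genes) gave Vegfa higher and Ndrg1 (1.83 against 3.19 and 3.099) lower. Cdkn2a missed the rule with median scaling, quantile and cyclic loess normalization and normexp, and Vegfa with median scaling, normexp and the median over its probes. Of 27 interferon and innate genes Ifitm3 was the single member. The lists for MHC class I, DNA methylation and Polycomb, p53 and apoptosis, stress response, cholesterol synthesis and housekeeping held 0 higher and 0 lower genes, and their medians ran from -0.31 to 0.01. The lists with medians above 0.5 were those of definitive endoderm, feeder, germ cell, visceral endoderm and epithelial genes.

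**Figure D4:**
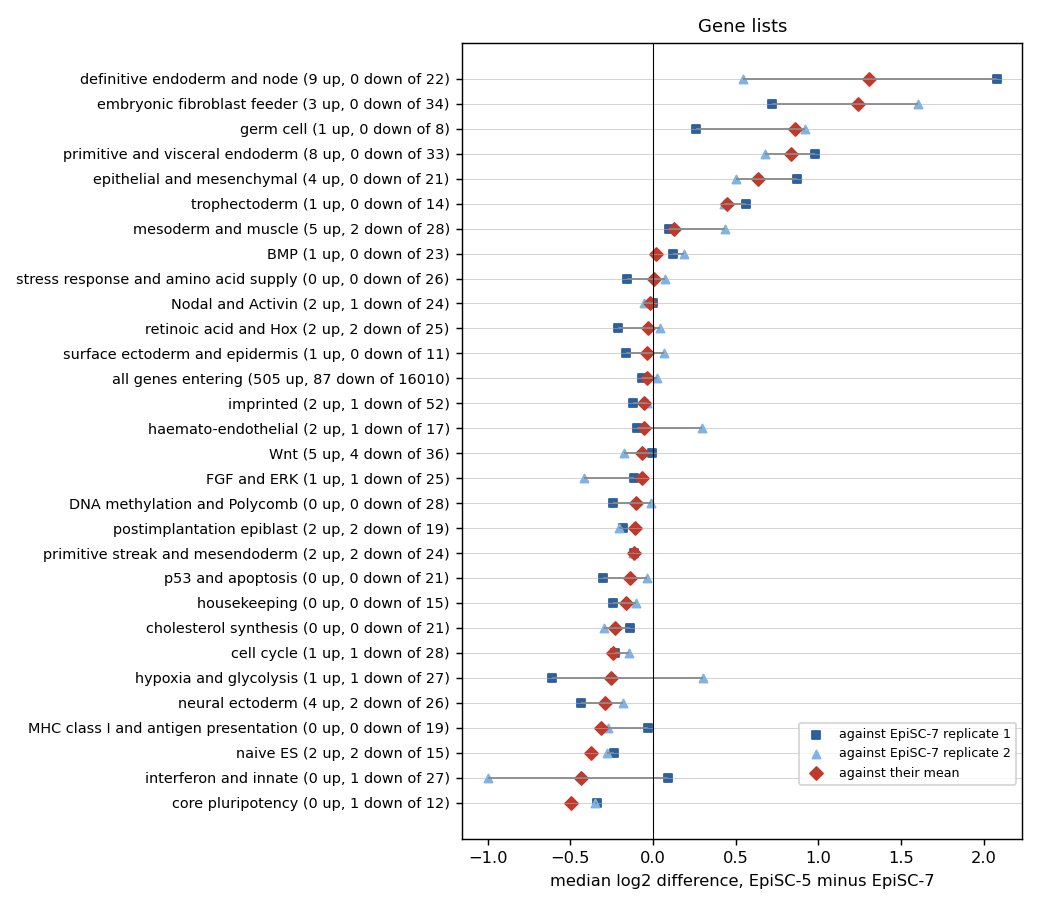
Median log2 difference of EpiSC-5 from EpiSC-7 for 29 gene lists and for all readable genes, against each EpiSC-7 array (square and triangle) and against their mean (diamond), with the numbers of genes meeting the rule. Against the mean, definitive endoderm and feeder genes have the highest medians, at 1.30 and 1.24, and the core pluripotency list has the lowest, at -0.49. Against each single array another list is lowest.

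Where a gene was not above background by any probe on the low side, the size is a bound. It sets the bright level against a floor, averaged over the dim arrays, below which the array did not read: the dimmest signal called well above background, or the signal of the gene itself if that was brighter. Trim31, a ubiquitin ligase gene of the gut, was at least 9.16-fold higher in EpiSC-5 (-2.73 against -6.02 and -6.28). The odorant receptor gene Olfr805 came next, and Spi1, the PU.1 factor of myeloid cells, was at least 5.59-fold higher (-3.44 against -6.21 and -6.52). These are dim signals: on EpiSC-5 each of the 8 genes with the largest bounds lay at -2.73 or lower, and 3 of the 8 are olfactory or vomeronasal receptors. The others were 8430436N08Rik, Cyp2c65 (at least 4.47-fold), Vmn1r181, Olfr1427 and Tpsg1 (at least 4.15-fold), a mast cell protease gene. On the lower side C330024D21Rik was at least 8.08-fold lower in EpiSC-5 (-6.38 against -1.89 and -3.89, and -0.89 to -0.32 on mES). It was followed by Vmn1r-ps8 (3.72-fold), Vmn1r237 (3.17-fold), Edn1, the endothelin gene (2.89-fold), Insm1, a neuroendocrine factor (2.87-fold), Olfr617 (2.77-fold), the streak growth factor gene Fgf3 (2.58-fold) and Sult1d1 (2.41-fold), each an at-least value. Of the 161 higher and 31 lower genes of this kind, 68 and 18 had a bound of 2-fold or more. Of the 16 genes with the largest bounds, Trim31 alone met the rule after the normexp background correction.

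Some members outside the lists were picked out after their values were seen. Ambp, a plasma protein precursor of liver, read -0.81 on EpiSC-5 against -3.12 and -2.89, and Proc, the anticoagulant protein C, 0.18 against -2.49 and -1.39. Tph1, which makes serotonin outside the brain, read 3.12 against -0.54 and 1.03. Shisa2, an inhibitor of Wnt and FGF receptor maturation, read 2.99 against -0.97 and 1.21. EpiSC-5 was the highest of the 6 arrays for each of these. On the lower side Nt5e, the ecto-nucleotidase CD73, read -1.30 against 0.13 and 0.68, with mES lower still at -2.55 to -2.03.

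Some of these genes are neighbours on their chromosomes. Taking genes next to each other among those readable, 25 groups of neighbours (56 genes) were higher together and 2 groups (4 genes) were lower together. With 3.15% of all readable genes higher and 0.543% lower, some neighbours would meet the rule together without any link. How many was not worked out, so the counts do not show clustering. On chromosome 1, Cxcr4 stood beside Cd55b and Cd55, which protect cells from complement (Cd55 at -1.11 against -3.44 and -3.28). On chromosome 8 the homeobox genes Irx3 (0.41 against -0.81 and -1.37) and Irx5 (-2.22 against -3.52 and -3.56) flanked the RNA gene Crnde (0.03 against -1.86 and -1.97). On chromosome 19 Rbp4 stood beside the fatty acid receptor gene Ffar4, and Pga5 beside Vwce. Other groups were families of like sequence, such as Akr1c12, Akr1c13 and Akr1c19 or olfactory receptors, in which probes may read more than 1 gene.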

How the data were processed

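Cy3-labelled RNA of each culture was read on a 1-colour Agilent array. The values used are the deposited intensity of each spot, linear and processed by Agilent Feature Extraction 9.1.3.1 per the file headers (detrended and background-adjusted within an array, not normalized between arrays). The authors' value table, also an intensity, differed from that signal by at most 0.00716 on the log2 scale, so it is the same signal rounded, linear and uncentred with no ratio. Its column medians were 78.9, 84.9 and 68.7 for mES, 117 for EpiSC-5, and 80.25 and 82.95 for EpiSC-7, and 0 of its per-sample columns were unused. For the probes, no genome build is given in the sources used.

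Of 45018 spots per array, control spots and those marked as outliers (12 to 24 per array) were left out, and 0 were saturated. Log2 signals are relative to the 75th percentile of their array, which was subtracted, and spots of 1 probe were averaged, giving 41174 probes. Names and chromosomes came from RefSeq's table of GRCm38.p6 through the accession (22951 probes), the symbol (6659) or an older symbol (3109), and 8455 probes had none. Genes on the X and Y chromosomes were left out. A gene that met the rule is counted but not reported here. Probes with no known chromosome were counted apart (228 higher and 30 lower of 4632) and not named. Counted by probe, 745 of 25757 autosomal probes were higher (2.89%) and 124 lower (0.481%).

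A gene was represented by its readable probe with the highest mean over the 3 EpiSC arrays. Of the genes on all 3 arrays with more than 1 such probe, another probe met the rule in the same direction for 44 of 89 higher and 4 of 15 lower genes, and in the opposite direction for 0. A dimmer probe alone met the rule for 172 further genes on the higher and 31 on the lower side, which are not counted.

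No test was run, as 1 array stood against 2, and the number of arrays limits the precision. The genes and lists were chosen with earlier results of these data known. The genes named are the 15 furthest from EpiSC-7 in each direction, the 8 largest bounds, up to 5 members of each list in each direction, 16 pluripotency, lineage and fibroblast genes whatever their values, and the cell type markers. Others are named where a list's count is given in full or as examples chosen after their values were seen. Calculations used Python 3.11.15, pandas 2.3.3 and numpy 2.4.6, with limma 3.58.1 in R 4.3.3 for normexp (offset 50), quantile and cyclic loess. Alternatives changed the scaling, the normalization, the background correction, the source of values, the filter on dim probes, the fold, the probe of a gene and the arrays.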

Additional observations from a re-analysis of the deposited data

How the results depend on the processing

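The count of 505 higher and 87 lower genes depended on how dim signals were treated. With normexp background correction it was 119 and 27, of which 116 and 27 were among the original genes. That correction adds an offset of 50, which brings dim signals together. With genes well above background on all 3 EpiSC arrays it was 276 and 54, and with no filter 131 genes were lower. At least 3-fold differences from both EpiSC-7 arrays were met by 165 and 22 genes, and at least 4-fold by 76 and 10. Lower genes numbered 145 with median scaling and 151 with quantile normalization; the cause was not tested. Median scaling moved the median of all genes from -0.03 to -0.15. The share of differing genes that were higher was 85.3%, against 74.1% with median scaling, 74.0% with quantile normalization and 62.6% without EpiSC-7 replicate 2. With 1 EpiSC-7 array left out, 917 to 1297 genes were higher and 381 to 549 lower, as fewer arrays have to be passed: 917 and 549 without replicate 2, 1297 and 381 without replicate 1. Percentile over detected probes (545 and 75), cyclic loess (467 and 116), the authors' value table (504 and 87), the median over a gene's probes (506 and 84) and dim signals raised to 1 floor, chosen after seeing the data (403 and 64), stayed within 1.5 times. No paired analysis was possible, as the 1 EpiSC-5 array, with no passage given, has no partner among the EpiSC-7 arrays.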
